A study of Mus musculus with 2 samples.

Results

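The ABC transporters are a family of proteins that share an ATP-binding cassette, and their 50 genes in mouse were described here in fetal liver. Members were taken by symbol: a protein-coding gene was a member where its name in the GENCODE mouse annotation was Abc, a subfamily letter from a to g and a number, with or without a further letter. The rule found 50 members among 43346 Ensembl genes, of which 21474 were protein coding, and all 50 such symbols of the annotation were present in both tables.

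Total RNA longer than 200 nt from whole livers of B6NCrl mouse embryos at embryonic day 16.5 (E16.5) was sequenced with added spike-in RNA. The single group held 2 biological replicates, each a pool of male and female embryos (41 embryos for replicate 2, with no number given for replicate 1), and there was no second condition. Both carry 1 donor identifier, and nothing in the labels states which step separates them, so the SDs below (n = 2) may hold technical spread alone. Tables held 44477766 expected counts for replicate 1 and 48820712 for replicate 2, and levels are given as TPM, a level corrected for transcript length and scaled to 1 fixed sum in each library.

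ABC transporters bind and split ATP on a pair of nucleotide-binding domains and use the energy to move lipids, bile salts, porphyrins, peptides and conjugated drugs across membranes. In hepatocytes, members at the canalicular membrane secrete the components of bile, others load cholesterol onto lipoproteins or work in mitochondria and peroxisomes, and the ABCE and ABCF proteins have no membrane domain and act at ribosomes. The liver at this stage is also the main site of red cell formation, in which haem is made in mitochondria.

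Markers of hepatocytes, of red cell precursors and of neutrophils were abundant. All 5 hepatocyte markers were at 16.58 TPM or more in replicate 1 and 18.47 TPM or more in replicate 2, all 5 erythroid markers at 132 TPM or more in replicate 1 and 148 TPM or more in replicate 2, and the globin genes held 34.85% and 34.02% of TPM. The 3 neutrophil markers summed to 3992 and 4221 TPM in replicates 1 and 2, against 3312 and 3404 TPM for the 5 erythroid markers. Sums were 260 and 269 TPM for megakaryocyte markers and 214 and 228 TPM for macrophage markers. They were 128 and 155 TPM for stellate and mesenchymal markers and 58.9 and 61.5 TPM for endothelial markers. The lung markers were at or near 0, with summed levels of 0.51 and 0.31 TPM. Sums of the marker lists were higher in replicate 2 for pancreas (3 genes, 35.22 TPM in replicate 1 and 75.83 TPM in replicate 2), intestine (3 genes, 7.87 and 15.94 TPM) and cholangiocytes, the cells of bile ducts (4 genes, 6.34 and 18.24 TPM). In bulk tissue, fewer cells of a type and less RNA per cell cannot be told apart, and which cells carried each transporter was not measured.

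A larger share of ABC transporter genes than of protein-coding genes in general was detected, with no test of the difference. In both libraries 35 of the 50 members (70%) reached 1 TPM, against 52.2% of all protein-coding genes. A level of 10 TPM was reached in both by 17 members (34%), against 26.4% of all protein-coding genes. The median member stood at 6.35 TPM in replicate 1 and 5.93 TPM in replicate 2 (6.14 ± 0.297, SD, n = 2), and the median protein-coding gene at 1.41 and 1.57 TPM (1.49 ± 0.113). Summed over the family, the level was 732 TPM in replicate 1 and 728 TPM in replicate 2 (730.2 ± 2.71). A handful of genes carried most of this sum: canalicular members held 28.7% and 28.6% of it, mitochondrial members 26.8% and 26.5%, and the ABCE and ABCF members 18.7% and 17.8%. These shares add levels of different genes within a library and are a description, with no test. A single gene made up most of the first 2 shares. Abcg2 alone gave 163 and 156 TPM of the canalicular sum of 210 and 208 TPM. Abcb10 gave 115 and 114 TPM of the mitochondrial sum of 196 and 193 TPM.

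**Figure D1:**
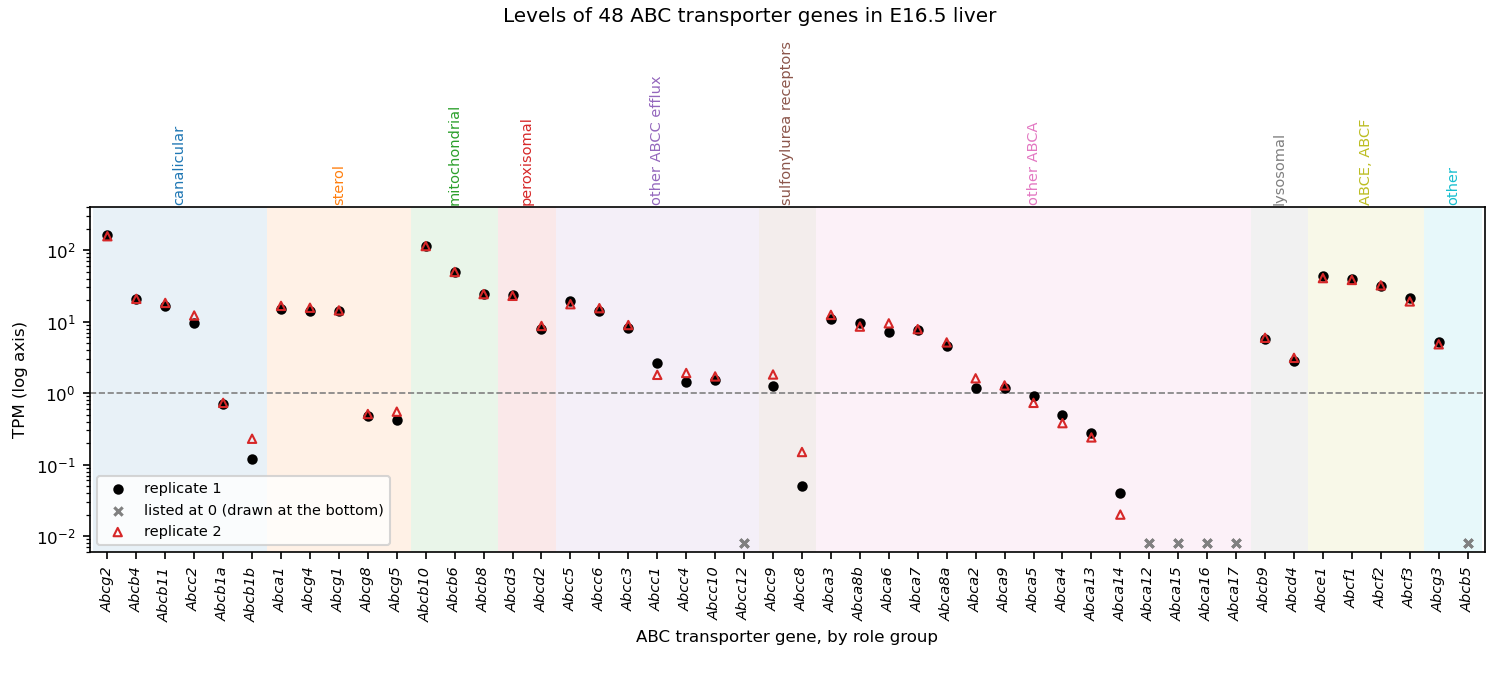
Level of 48 of the 50 ABC transporter genes in both libraries, as TPM on a log axis, with genes grouped by role and ordered by mean level within a role. Filled circles are replicate 1 and open triangles replicate 2, the dashed line marks 1 TPM, and crosses at the bottom mark the 6 genes listed at 0 TPM. Abcg2 and Abcb10 stand above 100 TPM in both libraries.

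**Figure D2:**
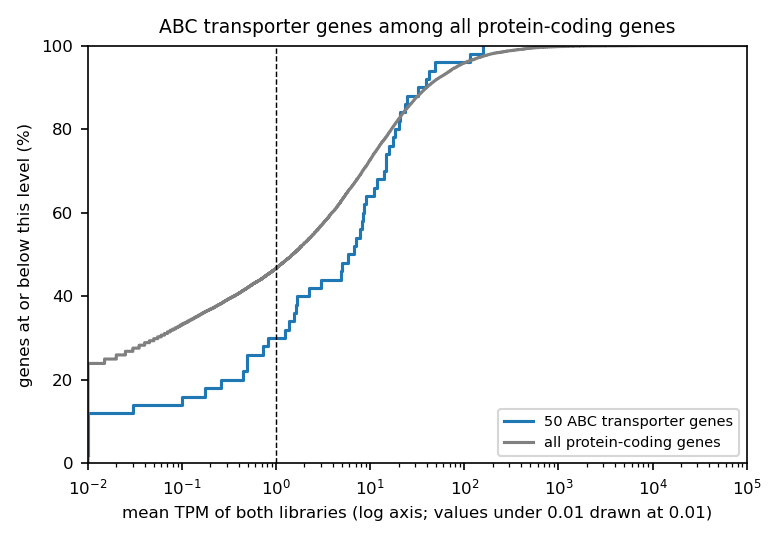
Share of genes at or below each mean level, for the 50 ABC transporter genes and for all protein-coding genes, on a log axis of TPM. The curve of the family lies below that of all genes at 1 TPM, where 35 members and 52.2% of all protein-coding genes are at or above the line in both libraries. The curves cross above 10 TPM, so the larger share of members does not hold at every higher level.

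Sequence upstream of the most abundant members and of the low Abcg5 and Abcg8 pair is shown because the transcript tables divide Abcg2 by start site and because the Abcg5 and Abcg8 windows overlap. Windows run from 250 bases before to 50 bases after an annotated start (RefSeq, GRCm38.p6), and 38 of the 50 members had a window. Capitals mark matches, on either strand, to AGGTCA (the core sequence that nuclear receptors bind) and CCAAT in Abcg2, to GCGCATGCGC (a palindrome that nuclear respiratory factor 1 binds) in Abcb10 and to AGATAA (a sequence that GATA factors bind) in Abcg5. A match is a description of the letters and not a measured binding site.
Abcg2 start 1, chr6:58584283-58584582 (plus strand): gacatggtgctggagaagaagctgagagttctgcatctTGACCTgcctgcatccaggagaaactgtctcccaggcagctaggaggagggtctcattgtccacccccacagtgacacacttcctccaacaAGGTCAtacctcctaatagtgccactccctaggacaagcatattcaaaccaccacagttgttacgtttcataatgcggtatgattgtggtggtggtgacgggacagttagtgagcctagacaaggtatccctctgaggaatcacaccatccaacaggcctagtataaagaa
Abcg2 start 2, chr6:58596422-58596721 (plus strand): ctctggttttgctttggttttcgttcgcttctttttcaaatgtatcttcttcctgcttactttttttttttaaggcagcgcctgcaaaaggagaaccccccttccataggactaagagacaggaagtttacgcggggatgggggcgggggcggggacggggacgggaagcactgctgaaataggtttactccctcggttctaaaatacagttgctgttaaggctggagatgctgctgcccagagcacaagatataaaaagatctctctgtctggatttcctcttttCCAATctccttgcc
Abcg2 start 3, chr6:58640296-58640595 (plus strand): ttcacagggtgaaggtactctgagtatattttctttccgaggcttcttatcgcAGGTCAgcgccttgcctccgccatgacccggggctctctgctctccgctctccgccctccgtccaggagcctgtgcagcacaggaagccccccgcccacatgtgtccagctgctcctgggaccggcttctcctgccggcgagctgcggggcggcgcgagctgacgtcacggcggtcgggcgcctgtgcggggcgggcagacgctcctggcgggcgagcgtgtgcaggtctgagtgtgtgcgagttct
Abcb10, chr8:123983073-123983372 (minus strand): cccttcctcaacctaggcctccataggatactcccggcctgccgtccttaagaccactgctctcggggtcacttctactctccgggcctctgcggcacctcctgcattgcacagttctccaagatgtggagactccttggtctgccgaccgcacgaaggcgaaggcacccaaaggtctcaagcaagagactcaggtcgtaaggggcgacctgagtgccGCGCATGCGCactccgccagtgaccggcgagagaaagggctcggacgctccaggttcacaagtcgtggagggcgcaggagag
Abcg5, chr17:84682962-84683261 (minus strand): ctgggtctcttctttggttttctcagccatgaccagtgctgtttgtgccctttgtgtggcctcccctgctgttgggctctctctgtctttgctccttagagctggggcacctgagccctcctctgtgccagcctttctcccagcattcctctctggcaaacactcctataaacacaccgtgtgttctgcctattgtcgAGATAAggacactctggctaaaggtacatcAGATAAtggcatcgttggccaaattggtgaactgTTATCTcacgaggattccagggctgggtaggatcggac

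Canalicular members ranged from the highest gene of the family to 2 genes below 1 TPM, and 4 of the 6 reached 1 TPM in both libraries. Gene spans are those of GENCODE M21 on GRCm38. Abcg2 (chr6:58584523-58695676), which exports urate, porphyrins and many drugs, stood at 163 TPM in replicate 1 and 156 TPM in replicate 2 (160 ± 4.92, SD, n = 2). It was the highest member in both libraries and the 548th of all protein-coding genes by mean level. Abcb4 (chr5:8893717-8959231), which moves phosphatidylcholine into bile, stood at 20.47 and 20.8 TPM (20.6 ± 0.233). Abcb11 (chr2:69238282-69342616), the bile salt export pump, stood at 16.46 and 18.23 TPM (17.3 ± 1.25). The ratio of Abcb4 to Abcb11 was 1.24 in replicate 1 and 1.14 in replicate 2, so both libraries had Abcb4 above Abcb11. Abcc2 (chr19:43782192-43840740), which exports bilirubin conjugates, stood at 9.62 and 12.16 TPM (10.9 ± 1.80).

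The genes of the drug pump P-glycoprotein, of which mouse has a pair, were the low canalicular members. Abcb1a stood at 0.71 and 0.73 TPM (0.720 ± 0.014) and Abcb1b at 0.12 and 0.23 TPM (0.175 ± 0.078, SD, n = 2). They lie side by side with Abcb4 on chromosome 5, and Abcb4 was 28.8 times the level of Abcb1a in replicate 1 and 28.5 times in replicate 2. With the deposited posterior mean TPM, a second estimate of the division of shared reads, Abcb1a stood at 1.57 and 1.52 TPM, above the 1 TPM limit, and the ratio was 12.9 and 13.5. The expected counts of these 3 genes were not whole, meaning that some reads were shared out between these and other genes. Of 100-nt windows of their exons, 13.4% in Abcb1a and 6.61% in Abcb1b recur exactly in another gene or lie in an overlapping one. Part of this, 6.61% of Abcb1a windows and 1.62% of Abcb1b windows, is shared with Gm42686, for which no level is available. Between Abcb1a and Abcb1b themselves, 9.03% of Abcb1a windows and 6.04% of Abcb1b windows are shared, so the division between these 2 genes is uncertain.

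Genes that work with the canalicular transporters were detected throughout: all 11 listed reached 1 TPM, and their median was 17.6 and 20.63 TPM. Rab11a, which recycles transporter-bearing vesicles to the membrane, stood at 179 and 170 TPM, the scaffold gene Slc9a3r1 at 69.39 and 77.36 TPM and the membrane-actin linker Rdx at 44.27 and 43.1 TPM. The lowest was Atp8b1, a phospholipid flippase of the canaliculus, at 1.62 and 1.75 TPM. Of 10 nuclear receptor and sterol regulator genes, 9 stood at 1 TPM or more, led by Ppara (37.45 and 45.38 TPM), Nr1h2 (36.49 and 39.24 TPM) and Srebf2 (30.04 and 31.55 TPM). The lowest was Nr0b2, a corepressor induced by the bile acid receptor, at 0.44 and 0.79 TPM, while the gene of that receptor, Nr1h4, stood at 6.52 and 7.33 TPM.

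Sterol transporters divided into 3 genes near 15 TPM and a pair near 0.5 TPM. Abca1 (chr4:53030787-53159895), which passes cholesterol to apolipoprotein A-I, stood at 14.99 TPM in replicate 1 and 16.57 TPM in replicate 2 (15.8 ± 1.12, SD, n = 2). Abcg4 (chr9:44273188-44288615), a sterol exporter studied mostly in brain, stood at 14.11 and 15.61 TPM (14.9 ± 1.06). Abcg1 (chr17:31057675-31117988), which passes cholesterol to high density lipoprotein, stood at 13.95 and 14.34 TPM (14.1 ± 0.276). The means of these 3 genes lay between 14.1 and 15.8 TPM, and Abca1 was 1.07 and 1.16 times the level of Abcg1, so their order rests on differences near the SDs. Over protein-coding transcripts alone the 3 were less alike. Abcg4 then stood at 9.37 and 10.84 TPM, against 14.9 and 16.57 TPM for Abca1 and 13.91 and 14.34 TPM for Abcg1.

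Abcg5 and Abcg8 encode the 2 subunits of 1 transporter that secretes sterols into bile, and each needs the other to leave the endoplasmic reticulum. Abcg5 (chr17:84658234-84683011) stood at 0.42 and 0.55 TPM (0.485 ± 0.092) on 40 and 48 expected counts. Abcg8 (chr17:84676302-84700333) stood at 0.48 and 0.51 TPM (0.495 ± 0.021) on 52 and 55 expected counts. The ratio of Abcg5 to Abcg8 was 0.875 in replicate 1 and 1.08 in replicate 2, and with so few counts no order between them can be given. They are divergent neighbours: the Abcg5 start printed above lies 110 bases from an annotated start of Abcg8, and the windows of those starts share 209 bases (69.7% of a window). The 3 AGATAA matches capitalised in the Abcg5 window lie in that shared stretch, at 52 and 22 bases before the Abcg5 start and 12 bases after it. AGATAA occurred in 11.2% of all 32851 windows and 3 or more times in 0.107% of them. The cut of 3 equals the number of matches in the Abcg5 window and was not planned in advance. The transcript of Abcg8 with most of its TPM (77.1% in replicate 1 and 94.0% in replicate 2) begins at another start, within the span of Abcg5.

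The partner genes of sterol export had a higher median than the transporters, though not every partner was above them. All 8 listed acceptors and sterol carriers reached 1 TPM, and their median was 49.62 and 53.71 TPM. The apolipoprotein genes Apoa1 (5999 and 6502 TPM) and Apoe (3269 and 3681 TPM) and the enzyme gene Lcat (77.47 and 84.74 TPM), which esterifies cholesterol on lipoproteins, led the list. Mylip, which marks the LDL receptor for degradation, was lowest at 7.06 and 6.7 TPM.

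Mitochondrial members had the highest median of the 4 compared groups, and all 4 stood above 1 TPM. Abcb10 (chr8:123952459-123983122), an inner membrane transporter needed for haem synthesis in red cell precursors, stood at 115 TPM in replicate 1 and 114 TPM in replicate 2 (115 ± 1.22, SD, n = 2). Abcb6 (chr1:75171717-75180392), described as a porphyrin transporter of mitochondria and other membranes, stood at 49.01 and 49.4 TPM (49.2 ± 0.276). Abcb8 (chr5:24393663-24410054), an inner membrane member linked to iron export, stood at 24.46 and 24.22 TPM (24.3 ± 0.170). Abcb10 was 4.84 times the level of the peroxisomal Abcd3 in replicate 1 and 4.96 times in replicate 2, and Abcb6 was 2.00 and 2.04 times the level of Abcb8.

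Of the exon bases of Abcb6, 55.2% overlap the noncoding gene Gm29253 on the same strand (1.69 and 2.59 TPM), and its expected counts were not whole, so its level holds a division of reads. Exons of Abcb10 overlap the noncoding Gm45890 on the opposite strand over 10.3% of their bases. No level is available for Gm45890, and whether reads there were assigned by strand is not stated. The Abcb10 window printed above holds the GCGCATGCGC palindrome 32 bases before the start. That palindrome was searched for only after the window had been read. It occurred in 0.971% of all windows and in 1 of the 45 member windows.

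Mitochondrial partners had a higher median than the transporters. All 10 listed genes of iron-sulfur cluster assembly and haem synthesis reached 1 TPM, and their median was 123 and 116 TPM. Fech, which inserts iron into protoporphyrin, stood at 556 and 563 TPM, Tmem14c, which carries a porphyrin precursor into the matrix, at 548 and 478 TPM, and the glutaredoxin gene Glrx5 at 475 and 443 TPM.

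Peroxisomal members had the lowest median of the 4 groups as composed here, with all 3 above 1 TPM. With Abcg5 and Abcg8 counted as canalicular, the canalicular median was 5.81 TPM and so below the peroxisomal one. Abcd3 (chr3:121758774-121815302), which imports branched-chain and dicarboxylic fatty acids and bile acid precursors, stood at 23.85 TPM in replicate 1 and 22.91 TPM in replicate 2 (23.4 ± 0.665, SD, n = 2). Abcd2 (chr15:91145871-91191799), which imports very long chain fatty acids, stood at 7.75 and 8.68 TPM (8.21 ± 0.658). Abcd3 was 3.08 times the level of Abcd2 in replicate 1 and 2.64 times in replicate 2. All 11 peroxisomal partner genes reached 1 TPM, and their median was 39.79 and 41.08 TPM. The lipid carrier gene Scp2 (386 and 401 TPM), the acyl-CoA synthetase gene Slc27a2 (129 and 132 TPM) and Acsl1 (119 and 140 TPM) led them, and Pex11a, a gene of peroxisome division, was lowest at 3.92 and 4.3 TPM.

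Set side by side, the group medians were 36.7 and 36.8 TPM for the 4 mitochondrial members (36.8 ± 0.053), 13.95 and 14.34 TPM for the 5 sterol members (14.1 ± 0.276), 13.0 and 15.2 TPM for the 6 canalicular members (14.1 ± 1.52) and 7.75 and 8.68 TPM for the 3 peroxisomal members (8.21 ± 0.658; SD, n = 2 for each). With these groups, the mitochondrial median was the highest and the peroxisomal the lowest in both libraries. Sterol and canalicular medians did not differ beyond their spread, and their order differed between the libraries. Members of a group are not replicates, so no test was made between groups.

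The ABCE and ABCF genes, whose products act in translation, were uniformly well expressed, with all 4 reaching 10 TPM in each library and a median of 35.8 and 35.2 TPM. Abce1, which splits ribosomes after termination, stood at 43.98 and 40.52 TPM (42.25 ± 2.45, SD, n = 2). Abcf1, a factor of translation initiation, stood at 39.86 and 38.2 TPM (39.0 ± 1.17). Abcf2 stood at 31.83 and 32.12 TPM (32.0 ± 0.205), and Abcf3 at 21.2 and 19.13 TPM (20.2 ± 1.46). Their 5 listed partners were all at 1 TPM or more (median 50.45 and 46.05 TPM), with the initiation factor subunits Eif2s1 at 63.73 and 57.47 TPM and Eif2s2 at 54.08 and 46.05 TPM, the ribosome rescue GTPase gene Hbs1l at 50.45 and 47.22 TPM, and its partner Pelo lowest at 3.12 and 3.46 TPM.

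Among the other ABCC exporters, 6 of 7 reached 1 TPM in both libraries. Abcc5, an exporter of cyclic nucleotides and other organic anions, was highest at 19.15 and 17.49 TPM (18.3 ± 1.17), followed by Abcc6, whose product releases ATP and is lost in human pseudoxanthoma elasticum, at 13.96 and 15.4 TPM (14.7 ± 1.02). Over protein-coding transcripts alone the order turned, with Abcc5 at 6.03 and 4.77 TPM and Abcc6 at 10.86 and 12.69 TPM. Abcc3 stood at 8.25 and 8.94 TPM, and Abcc1, Abcc4 and Abcc10 lay between 1.43 and 2.62 TPM in both libraries. Abcc12 had no counts in either library. The sulfonylurea receptor genes, subunits of ATP-sensitive potassium channels, were low: Abcc9 stood at 1.27 and 1.82 TPM and Abcc8 at 0.05 and 0.15 TPM. The channel genes they pair with kept the same order, with Kcnj8, the partner of Abcc9, at 1.91 and 2.1 TPM and Kcnj11, the partner of Abcc8, at 0 and 0.02 TPM.

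Of the 15 other ABCA genes, 7 reached 1 TPM in each library, and their median over all 15 was 0.9 and 0.73 TPM. Abca3, which fills surfactant bodies with lipid in lung, was highest at 10.93 and 12.4 TPM (11.7 ± 1.04). Its exons overlap the noncoding D330041H03Rik (7.45 and 9.55 TPM) on the opposite strand over 9.75% of their bases, and whether reads there were assigned by strand is not stated. Abca7, linked to lipid handling and phagocytosis, stood at 7.6 and 7.84 TPM, and Abca2, a lipid transporter of endosomes, at 1.16 and 1.61 TPM. Abca4, which works in photoreceptors, stood at 0.5 and 0.38 TPM (0.88 and 0.76 as posterior means) and Abca13 at 0.28 and 0.24 TPM. Abca12, Abca15 and Abca16 had no counts and Abca17 had 1 count in each library.

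The lysosomal pair was Abcb9, a peptide transporter, at 5.71 and 5.93 TPM and Abcd4, a cobalamin transporter, at 2.84 and 3.11 TPM. The partner genes of cobalamin release were Lmbrd1 at 14.85 and 15.18 TPM and Mmachc at 7.75 TPM in both. Of the 2 remaining genes, Abcg3 stood at 5.1 and 4.81 TPM and Abcb5 had no counts.

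In all, 15 members were below 1 TPM in both libraries, and 5 of them (Abca12, Abca15, Abca16, Abcb5 and Abcc12) had no counts in either. For these 5, a limit of 3 counts allows from 0.0166 TPM to 0.038 TPM in replicate 1 and from 0.0153 TPM to 0.0351 TPM in replicate 2, which covers counting error only, so they were not detectable at this depth rather than shown to be absent.

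Neighbouring members differed in level at 4 of 6 places. Of the 6 places where members lie within 100 kb of each other, the 5-gene cluster on chromosome 11 held Abca8b at 9.55 and 8.51 TPM and Abca6 at 7.24 and 9.45 TPM beside Abca8a (4.6 and 5.11 TPM), Abca9 (1.18 and 1.28 TPM) and Abca5 (0.9 and 0.73 TPM). On chromosome 7, Abcc6 lies beside Abcc8, at 13.96 and 15.4 TPM against 0.05 and 0.15 TPM. On chromosome 17, Abca3 lies beside Abca17, which is listed at 0 TPM. Only the Abcg5 and Abcg8 pair, both near 0.5 TPM, and the trio of Abca14 (0.04 and 0.02 TPM), Abca15 and Abca16 were at like levels throughout among those 6 places.

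Base composition of the promoter windows differed between detected and low members in the same direction as in all genes. The median GC content was 63.5% over the 24 members with a window that reached 1 TPM in each library, and 54.0% over the 14 members below that in a library. Over all protein-coding genes the medians were 61.67% for 8880 detected genes and 51.33% for the 7437 others. The median count of CpG dinucleotides per window was 22 for detected and 10.5 for low members, and 22 for detected and 5 for low genes of the whole set, taking the highest window of a gene. Windows were missing mostly for detected members: 24 of the 35 detected members had one, against 14 of the 15 others. The Abcb1a window (chr5:8566841-8567140) lies before the gene span used here, which begins at base 8660077. No test was made between the family and other genes.

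Start sites of Abcg2 were used unequally. Of its TPM, 96.3% in replicate 1 and 96.0% in replicate 2 was assigned to transcripts that begin within 100 bases of start 3 printed above. Start 2 held 2.38% and 3.11%, and the transcript at start 1 was listed at 0 in both libraries. GC content of the 3 windows, in order, was 50%, 48% and 67%, with 3, 10 and 28 CpG dinucleotides. Matches to AGGTCA lie 212 and 121 bases before start 1 and 197 bases before start 3, and a CCAAT match lies 36 bases after start 2. AGGTCA occurred in 16.3% of all windows and CCAAT in 37.4%.

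Other motifs searched on both strands were TGATAA, present in 9.05% of all windows and in those of Abcc2 and Abcc4, and CACGTG, present in 7.15% of all windows and in those of 6 members. A pair of AGGTCA sequences inverted around 1 base, the form that the bile acid receptor binds, occurred in 3 of the 32851 windows and in no member window. That pair holds 2 AGGTCA matches, and no match says only that these exact letters are not in the window. AGGTCA by itself occurred in 7 of the 45 member windows, against 16.3% of all windows. In Abcb11 a match lies 56 bases before the start.

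Several transporters owed a large share of their gene level to short transcript models that cannot encode the full protein. The leading coding transcript of Abcb11 held 58% of its TPM in replicate 1 and 53.0% in replicate 2. Another coding transcript, of 4963 nt, held 3.89% and 7.08%. A noncoding model of 648 nt held 37.4% and 39.3%. Since TPM divides by length, that short model rests on 6.40% and 6.89% of the gene's expected counts. Abcc2 was alike, with 56.6% and 50.5% of TPM on its leading coding transcript and 5.71% and 11.8% on a 1926-nt coding transcript. A 607-nt retained intron of Abcc2 held 33.1% and 34.4% and rests on 3.53% and 3.96% of counts. Abcb6 had 64.3% and 61.1% on its leading transcript and 31.3% and 34.9% on a 416-nt model annotated as coding. Over protein-coding transcripts alone, Abcb11 stood at 10.31 and 11.07 TPM and Abcc2 at 6.0 and 7.57 TPM, while Abcb4, which has 1 listed transcript, was not altered. The ratio of Abcb4 to Abcb11 then had a mean of 1.93, against 1.19 with all transcripts.

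**Figure D3:**
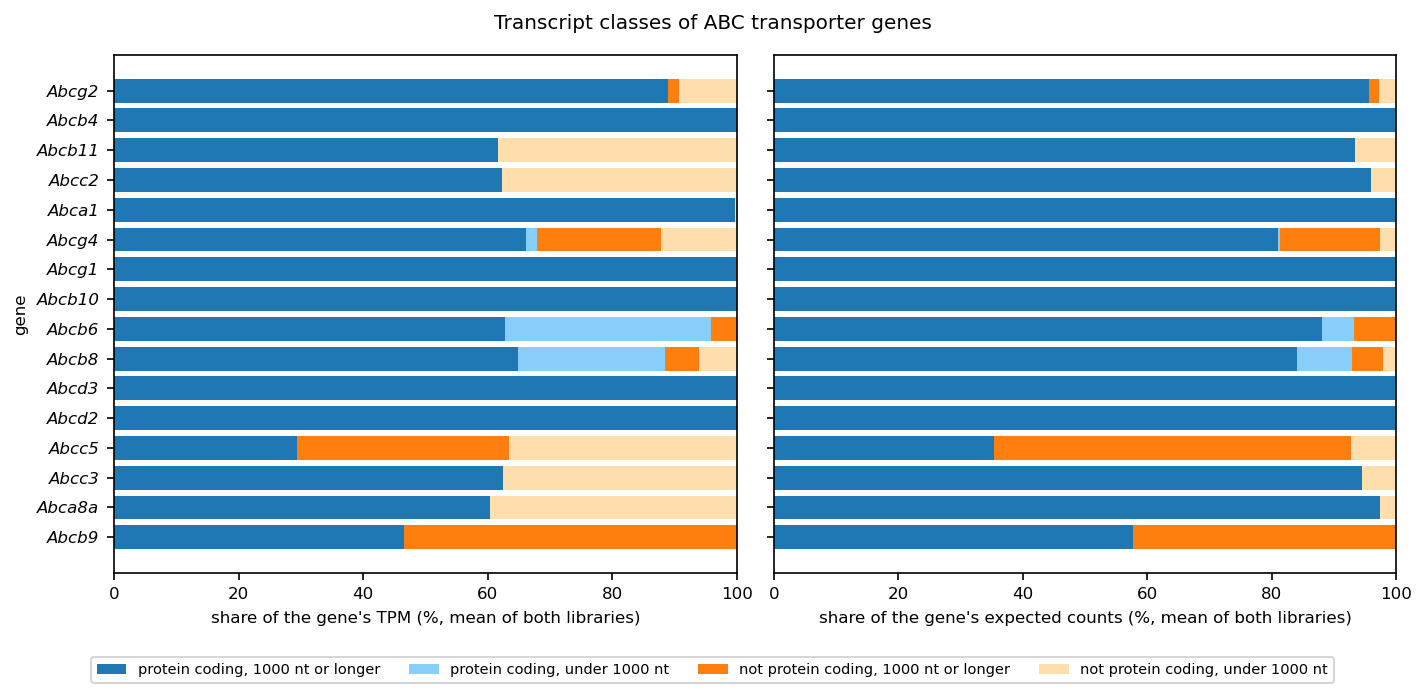
Share of each gene's TPM (left) and of its expected counts (right) held by 4 classes of transcript, as the mean of both libraries, for 12 members of the 4 compared groups at a mean of 1 TPM or more and for Abcc5, Abcc3, Abca8a and Abcb9. Transcripts without a type in the annotation are drawn as not protein coding. Short noncoding models take 38.3% of the TPM of Abcb11 and 6.64% of its counts.

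The other compared members were mostly carried by 1 transcript. The leading transcript of Abcg2 held 87.2% and 85.1% of its TPM, Abca1 had 99.5% and 100% on its leading transcript, and Abcb4, Abcb10, Abcb1b, Abcd2 and Abcd3 have a single listed transcript. The leading transcript held 99.7% and 100% in Abcg1 and 76.1% and 80.8% in Abcb1a. In Abcg5 it held 100% and 79.6%, on few counts. Among members with several transcripts that reached 5 TPM in each library, 3 of 20 (15%) had a leading transcript below 50% in both libraries, against 18.5% of all such protein-coding genes. They were Abcb8, with 46.1% and 47.6%, Abcg4, with 41.0% and 41.6%, and Abcc5. The leading transcript by TPM was not annotated as protein coding in 1 of 20 (5%) in replicate 1, Abcc5, against 8.13% of all such genes, and in 3 of 20 (15%) in replicate 2, Abcc5, Abcc3 and Abcb9, against 8.33%. Abcc5 was led by an unclassified 496-nt model with 18.5% in replicate 1 and by a retained intron with 23.0% in replicate 2. That 496-nt model rests on 2.68% of the expected counts of Abcc5 in replicate 1. By counts, a coding transcript of Abcc5 led with 32.0% in replicate 1 and the retained intron with 39.5% in replicate 2.

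By share of TPM, the leading transcript differed between the libraries in 3 of the 20 (15%), against 6.14% of all such genes: Abcc5, Abcc3 and Abcb9. In Abcc3, a basolateral exporter of conjugates, a coding transcript held 57.9% in replicate 1, while a 567-nt noncoding model led with 37.0% in replicate 2. In replicate 2 a second coding transcript of nearly the same length took 29.4%, against 7.15% in replicate 1. By expected counts the first coding transcript of Abcc3 led in both libraries (84.5% and 47.8%), and the 567-nt model held 4.29% and 5.54%. In Abcb9 a coding transcript led with 48.3% in replicate 1 and a retained intron with 52.2% in replicate 2, so its shares differ little between the libraries although the leader does. By expected counts the coding transcript of Abcb9 led in both libraries, with 59.5% and 55.7%.

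Replicates differed little over the family. Of the 43 members with a mean of 10 or more expected counts, none was over 2-fold apart on the scale of log2(TPM + 1) after centring, against 0.499% of 14233 protein-coding genes. With this pseudocount, genes below about 1 TPM can hardly reach 2-fold. The median absolute log2 ratio was 0.108 in members and 0.109 in all genes. Abca6, with 7.24 TPM in replicate 1 and 9.45 TPM in replicate 2, had the highest ratio of replicate 2 over replicate 1 (log2 ratio 0.32), and Abcc1, an exporter of glutathione conjugates, with 2.62 and 1.8 TPM, the lowest (log2 ratio -0.39). Ratios were above 0 in 24 members and below 0 in 19, and this split depends on the scaling: without centring it was 28 and 15, and with scaling to the spike-ins, which shifts the median of all genes by -0.29, it was 7 and 36.

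The deposited TPM intervals did not overlap between the libraries in 10 of the 43 members (23.3%), against 22.7% of all such genes, a share near the background. Among them were Abca1, Abca6, Abca8b, Abcc4, Abcc8, Abcc9, Abcd2, Abce1 and Abcg2. The markers of bile duct, intestine and pancreas that were higher in replicate 2 include Krt19 (2.5 TPM in replicate 1 and 8.28 TPM in replicate 2) and Cpa1 (1.82 and 9.1 TPM). Their part in the differences between replicates of the transporters was not tested.

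**Figure D4:**
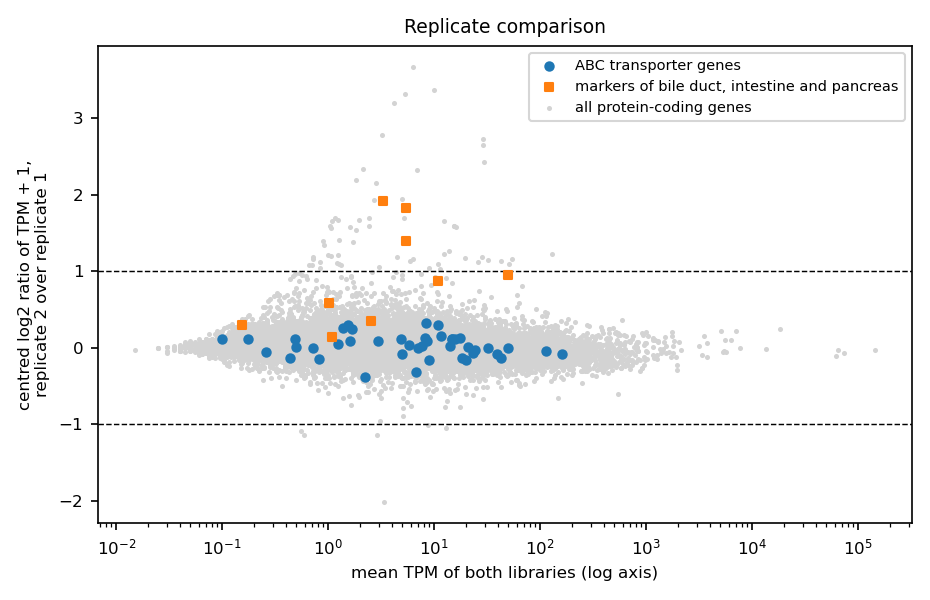
Centred log2 ratio of TPM + 1, replicate 2 over replicate 1, against the mean TPM on a log axis, for genes with a mean of 10 or more expected counts. Points are the 43 ABC transporter genes, squares the markers of bile duct, intestine and pancreas, and grey dots all protein-coding genes, and dashed lines mark 2-fold. The members lie between -0.39 and 0.32, and the markers lie above 0.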

How the data were processed

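Total RNA-seq libraries from 2 E16.5 liver pools were used. The authors deposited, per library, a gene and a transcript table on mouse assembly mm10 with GENCODE release M4, per the file headers. No aligner or quantification program is named by the sources at hand. Expected counts in the deposited tables are estimated counts, often fractional, since reads shared by transcripts are divided. TPM values in the deposited tables are scaled to 1 sum over all rows, spike-ins included (3.96% of TPM in replicate 1 and 5.075% in replicate 2). The posterior mean TPM was an alternative, and the deposited interval bounds carry no stated level. No strand-specific step is stated.

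Symbols, types and coordinates came from GENCODE M21 (GRCm38), matched by gene ID without version, and promoter windows from RefSeq (GRCm38.p6). Protein sequences were not used here. Levels are given for both libraries, with mean and SD. With 1 group, no p-value is given. Replicate 2 was set over replicate 1 as a log2 ratio of TPM + 1, with the median set to 0 over genes with a mean of 100 or more expected counts. Genes with a mean of 10 or more were compared. Counts of genes by leading transcript were taken over genes with several transcripts that reached 5 TPM in each library. Transcript shares of single genes are given at any level. Counts within 0.01 of a whole number were called whole.

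Named members are those of the 4 compared groups, the ABCE and ABCF genes, the 15 highest, and the highest and lowest of each other group, with the 3 highest and the lowest gene of each partner list. Some genes that this rule selects are not reported here, and group values still include them. Other members are named where a count singles them out. Members, role groups and lists were chosen with earlier results of these data known. Alternatives were the posterior mean TPM, TPM over nuclear genes, TPM over nuclear genes without globins, protein-coding transcripts alone, and other pseudocounts, folds and filters. Further alternatives were TMM factors (edgeR 4.0.16) and size factors (DESeq2 1.42.0) on rounded expected counts in R 4.3.3, spike-in scaling, and each replicate alone. TPM over nuclear genes was rescaled without genes of the mitochondrial chromosome, spike-ins and rows that the annotation does not name. Values given below as without globins leave out all of these and the globins. Python 3.11.15 with numpy 2.4.6, pandas 2.3.3 and matplotlib 3.10.9 did the rest.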

Additional observations from a re-analysis of the deposited data

How the results depend on the processing

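The 35 members at 1 TPM became 36 with posterior means, 34 over protein-coding or over long transcripts and 37 without globins, and remained 35 in number over nuclear genes and with either replicate alone. Other thresholds gave 37 at 0.5 TPM, 29 at 2 TPM, 26 at 5 TPM, 17 at 10 TPM and 44 at 3 expected counts. No member was over 2-fold apart under any alternative run. The canalicular median was 8.74 TPM both over protein-coding transcripts and over transcripts of 1000 nt or longer, 24.0 without globins, 19.0 without members under 1 TPM and 5.81 with Abcg5 and Abcg8 added, and each replicate alone gave 13.0 to 15.2. The sterol median was 15.2 over nuclear genes, 10.1 over protein-coding transcripts, 24.1 without globins, 12.8 over long transcripts and 14.9 without members under 1 TPM or without Abcg5 and Abcg8 (13.95 to 14.34 with 1 replicate). The mitochondrial median was 36.6 with posterior means, 39.5 over nuclear genes, 34.4 over protein-coding transcripts, 62.6 without globins, 25.0 over long transcripts and 24.3 without Abcb6 (36.7 to 36.8 with 1 replicate). The peroxisomal median was 14.0 without globins (7.75 to 8.68 with 1 replicate). The summed level was 784 TPM over nuclear genes, 658 over protein-coding transcripts, 1243 without globins and 647 over long transcripts (728 to 732 with 1 replicate). The alternative of long transcripts was chosen after seeing the data. The mitochondrial median was the highest of the 4 in every alternative run. The peroxisomal was the lowest except with Abcg5 and Abcg8 counted as canalicular, where the canalicular median fell below it. Canalicular and sterol medians exchanged places with posterior means, without members under 1 TPM, and in replicate 2 alone. Scaling to nuclear genes without globins multiplied member levels by a median of 1.70, of which scaling to nuclear genes with globins kept gave 1.07. Taking protein-coding transcripts alone moved Abca8a, Abcb9, Abcb11, Abcc2, Abcc3 and Abcc5 by over 1.5 times. At a pseudocount of 0.1 still none of 43 members was over 2-fold apart, against 2.21% of genes. Even this pseudocount shrinks the ratios of genes near 0.1 TPM, such as Abcc8 at 0.05 and 0.15 TPM, so these could hardly be called. No paired analysis was possible because the study holds a single group. Depth limits Abcg5, Abcg8 and other genes under 1 TPM, which rest on few counts.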

Other observations

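ABC transporter genes whose symbols do not begin with Abc lay outside the rule. Tap1 and Tap2, which move peptides into the endoplasmic reticulum for antigen presentation, stood at 3.35 and 3.69 TPM and at 5.93 and 5.81 TPM in replicates 1 and 2. The chloride channel gene Cftr stood at 0.03 and 0.08 TPM.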
